A study of Homo sapiens with 8 samples.

Results

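TRiC, also called CCT, is the cytosolic chaperonin of eukaryotes, and the genes followed here encode its 8 subunits: TCP1, CCT2, CCT3, CCT4, CCT5, CCT6A, CCT7 and CCT8. They were taken by gene symbol and are 8 of the 59414 genes in the deposited count table. The libraries came from HEK293T, an established line of human embryonic kidney origin, in which RNA editors marked mRNAs of processing bodies (P-bodies), cytoplasmic granules of repressed mRNA and decay factors. The TRIBE editor turns adenosine into inosine (A-to-I), and the STAMP editor turns cytidine into uridine (C-to-U). Every group carried the editors, and no library without them was analysed here. The 4 groups, with 2 libraries each, were sorted P-bodies, cytosol, cells given an siRNA against EDC4 (siEDC4) and cells given a control siRNA (siNC). The EDC4 protein is a scaffold on which mRNA decapping factors assemble. The labels give the line, the fraction or siRNA and a batch number, 1 or 2, and nothing on separate cultures, on how the editors were delivered or on treatment times. P-values therefore measure the spread between these libraries, which may be technical.

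TRiC is built from a pair of stacked rings, each holding every subunit once at a fixed place. It binds and hydrolyses ATP to close over newly made proteins such as actin and tubulin. Because a ring needs its subunits in equal number, the levels of their mRNAs can be set against one another. The subunits are related in sequence but not alike: TCP1, CCT2, CCT4 and CCT5 bind ATP tightly and lie side by side in the ring, while CCT3, CCT6A, CCT7 and CCT8 bind it weakly. CCT7 sits between CCT5 and CCT8.

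The subunit mRNAs differ in base composition and in length. In the GENCODE v29 principal transcripts, GC content was 51.8% for CCT7 and 51.2% for CCT3, and between 43.1% (CCT8) and 44.7% (CCT4) for the other 6. Coding lengths lay close together, from 1596 bases (CCT6A) to 1671 (TCP1), and the 3′ UTRs ranged from 143 bases (CCT7) to 1629 (CCT5). At the third position of codons, G or C stood in 57.7% of codons of CCT7 and 56.6% of CCT3, against 50.4% in CCT5, 42.1% in CCT6A, 38.3% in CCT4, 33.9% in TCP1, 33.2% in CCT2 and 31.7% in CCT8. The first 90 coding bases (30 codons) are shown for 4 subunits, the 2 highest and the 2 lowest by this share. Their contrast over the whole coding sequence follows from that choice. Capitals mark G or C at the third position of a codon.
CCT7: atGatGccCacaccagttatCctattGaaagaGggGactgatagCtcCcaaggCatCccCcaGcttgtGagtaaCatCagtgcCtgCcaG
CCT3: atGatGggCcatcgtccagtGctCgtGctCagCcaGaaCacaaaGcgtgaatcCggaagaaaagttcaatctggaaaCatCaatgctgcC
CCT2: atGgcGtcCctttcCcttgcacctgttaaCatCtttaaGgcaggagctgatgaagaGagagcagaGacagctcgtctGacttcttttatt
CCT8: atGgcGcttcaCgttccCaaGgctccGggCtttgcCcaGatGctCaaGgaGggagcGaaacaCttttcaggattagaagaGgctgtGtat
Of the 30 codons, 19 end in G or C in CCT7, 15 in CCT3, 10 in CCT2 and 17 in CCT8. The opening of CCT8 is richer in such codons than its whole coding sequence. The first coding base lies in hg38 on chromosome 2 at 73234379 for CCT7, chromosome 1 at 156338184 for CCT3, chromosome 12 at 69585522 for CCT2 and chromosome 21 at 29073590 for CCT8. CCT2 and CCT7 lie on the plus strand and CCT3 and CCT8 on the minus strand.

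In the count table the genes span, in hg38, chromosome 6 from 159778498 to 159789703 for TCP1 (ENSG00000120438.12), chromosome 12 from 69585426 to 69601570 for CCT2 (ENSG00000166226.13) and chromosome 1 from 156308968 to 156367873 for CCT3 (ENSG00000163468.15). CCT4 (ENSG00000115484.15) and CCT7 (ENSG00000135624.16) share chromosome 2, at 61868085 to 61888671 and 73233420 to 73253021. CCT5 (ENSG00000150753.12) lies on chromosome 5 at 10249929 to 10266389, CCT6A (ENSG00000146731.11) on chromosome 7 at 56051685 to 56063989 and CCT8 (ENSG00000156261.13) on chromosome 21 at 29055805 to 29073797. TCP1 shares 454 exon bases, 9.3% of its exon length, with ACAT2 on the opposite strand, and CCT5 shares 1734 (30.8%) with AC012640.4. Whether counting used strand is not given, so reads of such pairs cannot be assigned with certainty. AC012640.4 held 2 to 8 counts per library, and ACAT2, an acetyl-CoA acetyltransferase, 942 to 1670. Of 15 listed relatives (pseudogenes and CCT6B, a close relative of CCT6A), 10 held 10 counts or fewer over the 4 libraries of the sort. All 15 together held 1672 counts, 0.51% of the 328151 counts of the subunits.

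Sorted P-body libraries were made from 50 ng of RNA and cytosol libraries from 100 ng, so fraction and amount of input cannot be told apart; the knockdown libraries took 500 ng. Counts summed to 21186963 to 23716926 per library in the sort, and reads of listed genes in the knockdown tables to 5697417 to 6294767. The sorted P-body libraries stood further apart from each other than the cytosol libraries (chi-square per degree of freedom 22.5 and 3.00). The siNC libraries differed in reads by about sampling noise (1.02) and were counted as 1 sample in the knockdown tests, while the siEDC4 libraries gave 3.46. Of 5 HEK293T markers, NEFM, NEFL, LIN28B and IGF2BP1 were at 20.8 to 504 CPM (counts scaled to library size after TMM) in every sort library, and PAX2 at 2.59 to 5.32 CPM. The markers CD3E, HBB and KRT5 were at 0, PTPRC, ALB and APOA1 at 0.470 CPM or less, and CDX2, listed as a marker of other epithelium that should be absent, at 13.4 to 19.5 CPM, above PAX2.

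The sort asked which mRNAs are held in P-bodies. Of the 8 subunit mRNAs, 5 were higher in sorted P-bodies, 1 was lower, and CCT3 and CCT4 did not pass the test. CCT7 was the one that fell, to 0.600 times its cytosolic share, while CCT5 rose 1.67-fold. All 8 passed the filter on low counts. Of the 18745 genes tested, 57.8% passed at an adjusted p under 0.05, with 28.8% higher and 29.0% lower, so a call as such is common here. The median log2 fold change of the 8 was 0.50, against -0.03 for all genes. Counts are shares of a library, and in bulk libraries fewer cells with an mRNA and less of it per cell cannot be told apart.

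CCT5, whose protein can form rings on its own, was at 671 and 609 CPM in sorted P-bodies, with 375 and 394 CPM in cytosol. Both sorted libraries lay above both cytosol libraries (640.1 ± 44.2 against 384 ± 13.8 CPM, SD, n = 2 each). The log2 fold change with its SE was 0.74 ± 0.11 (adjusted p = 0.00039, edgeR). CCT2 was at 399 and 387 CPM in sorted P-bodies, with 250.0 and 272 CPM in cytosol. It rose by 0.59 ± 0.11 on the log2 scale (adjusted p = 0.0012, edgeR), and its groups did not overlap. TCP1, the subunit that gave the complex its name, was at 637 and 588 CPM in sorted P-bodies, with 385 and 446 CPM in cytosol. Its log2 fold change was 0.56 ± 0.12 (adjusted p = 0.0030, edgeR). CCT4, the remaining tight ATP binder, was at 546 and 483 CPM in sorted P-bodies, with 426 and 456 CPM in cytosol. Its groups did not overlap, but the difference of 0.22 ± 0.12 did not pass (adjusted p = 0.13, edgeR).

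Among the weak ATP binders the directions were mixed. CCT6A was at 469 and 433 CPM in sorted P-bodies, with 290 and 309 CPM in cytosol, a log2 fold change of 0.59 ± 0.11 (adjusted p = 0.0013, edgeR). CCT8 was at 453 and 408 CPM in sorted P-bodies, with 301 and 333 CPM in cytosol, a log2 fold change of 0.44 ± 0.12 (adjusted p = 0.0089, edgeR). CCT3, with the most counts of the 8 in both fractions, was at 814 and 755 CPM in sorted P-bodies, with 692 and 760.0 CPM in cytosol. The groups overlapped, and its value of 0.11 ± 0.12 (adjusted p = 0.44, edgeR) became -0.09 when libraries were scaled by size alone. CCT7 was at 253 and 222 CPM in sorted P-bodies, with 378 and 415 CPM in cytosol. Here both sorted libraries lay below both cytosol libraries (238 ± 21.7 against 397 ± 25.8 CPM, SD, n = 2 each), and the log2 fold change was -0.74 ± 0.12 (adjusted p = 0.0005, edgeR). Among all tested genes 18.2% had a lower value than CCT7 and 78.6% a lower value than CCT5.

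The calls for TCP1, CCT2, CCT6A and CCT8 were lost without cytosol 1: their adjusted p was then 0.15, 0.085, 0.076 and 0.26 (edgeR), with values of 0.44, 0.51, 0.53 and 0.35, and 2 of 8 subunits passed, CCT5 and CCT7. Without cytosol 2, TCP1, CCT2 and CCT6A passed (adjusted p = 0.024, 0.027 and 0.032, edgeR). CCT8 did not pass without cytosol 2 (adjusted p = 0.090) or with scaling by library size alone (adjusted p = 0.10). CCT4 and CCT3 were at 0.29 and 0.15 without sorted P-bodies 2. They passed as higher in the reads of the A-to-I table (0.34 and 0.27, adjusted p = 0.0087 and 0.015, edgeR). In fits without 1 library the spread comes from the pair left whole, and the sorted pair stood further apart than the cytosol pair. The SE of CCT4 was 0.064 without sorted P-bodies 2 and 0.24 without cytosol 1. Calls gained or lost in such fits therefore depend on which pair is left.

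Set against the other 7, CCT7, the one subunit that fell in these same counts, changed place between fractions. Its ratio to the others restates that fall and is no separate support for it. In each sorted library all 7 other subunits had a higher CPM than CCT7, and in each cytosol library 3 did. The ratio of CCT7 to the median of the other 7 was 0.463 and 0.461 in the sorted libraries and 1.01 and 1.05 in the cytosol libraries. The groups of 2 are too small for a test of this single value to pass: the exact two-sided permutation p was 0.333, the smallest that 2 against 2 allows. Summed over all 8, the subunits took 4243 and 3885 CPM in the sorted libraries and 3096 and 3383 CPM in the cytosol libraries (exact permutation p = 0.333, again the smallest possible). In the knockdown libraries, whose reads come from another table, the ratio of CCT7 to the others was 1.44 and 1.46 in siEDC4 and 1.59 and 1.55 in siNC. There only CCT3 had more reads than CCT7.

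**Figure D1:**
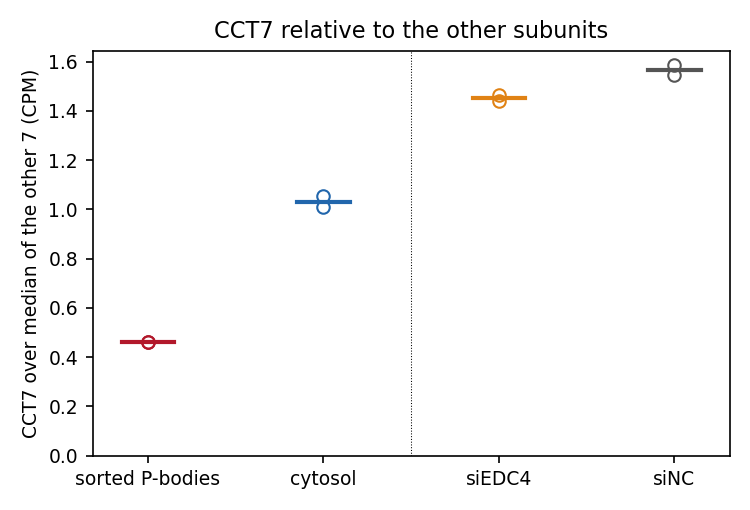
CPM of CCT7 divided by the median CPM of the other 7 subunits (y axis, ratio) in each library of the 4 groups (x axis), with a bar at the group mean; the dotted line parts the count table of the sort from the reads of the knockdown tables, which were made separately. The sorted P-body libraries sit at 0.463 and 0.461, below the cytosol libraries at 1.01 and 1.05.

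Levels per exon length (TPM, computed from the counts with the lengths in the count table) allow the subunits to be compared with one another. They rank genes within a library, and differences between fractions were tested on the counts. In cytosol the order was CCT3 (599 ± 28.0 TPM, SD, n = 2), CCT4 (521 ± 15.1), CCT7 (352 ± 16.2), CCT8 (302 ± 15.9), TCP1 (271 ± 23.2), CCT6A (248 ± 6.30), CCT5 (217 ± 3.65) and CCT2 (197 ± 7.85). No neighbours in this order had overlapping libraries. In sorted P-bodies the order was CCT3 (839 ± 19.3 TPM), CCT4 (787 ± 44.8), CCT8 (532 ± 23.4), TCP1 (518 ± 13.9), CCT6A (485 ± 12.99), CCT5 (469 ± 18.3), CCT2 (384 ± 3.42) and CCT7 (273 ± 16.8). There CCT8 overlapped TCP1, and CCT6A overlapped CCT5. CCT7 thus went from rank 3 to rank 8, and the highest level was 3.05 times the lowest in cytosol and 3.07 times in sorted P-bodies. With the length of the principal transcript in place of the union of exons, the spreads were 3.23 and 2.94 times and CCT7 went from rank 2 to rank 8. CCT3 was highest both ways, but the lowest in cytosol was then CCT5, so the order of the middle and lower subunits depends on the length used.

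**Figure D2:**
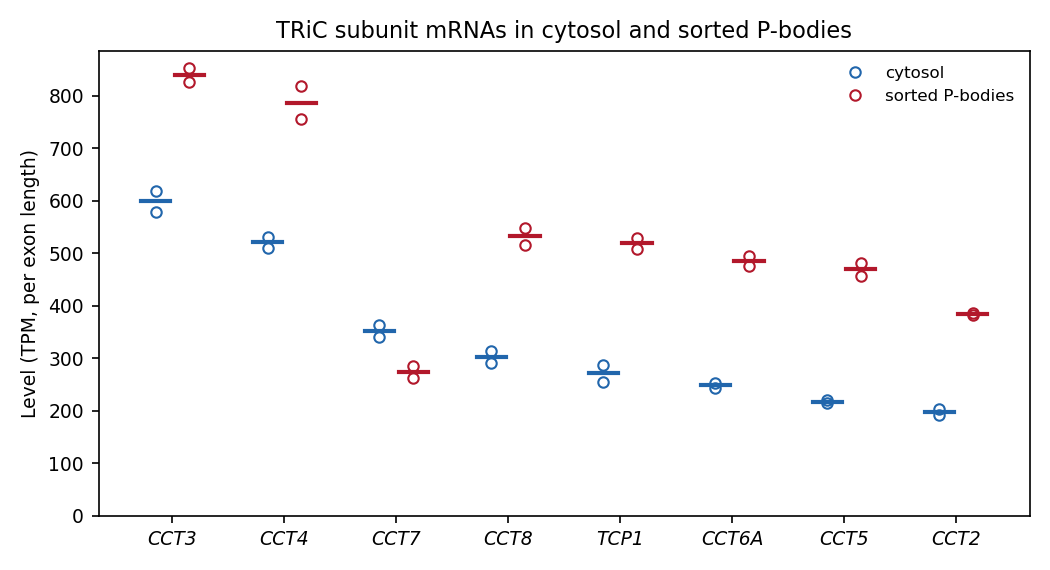
Level per exon length (TPM, linear y axis from 0) of each subunit (x axis, in the cytosolic order) in the 2 cytosol and 2 sorted P-body libraries, each a circle, with a bar at the group mean. CCT7 is the third highest in cytosol and the lowest of the 8 in sorted P-bodies; heights are to be compared within a fraction, since on this scale the sorted libraries of CCT3 lie above its cytosol libraries while in CPM they overlap.

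GC content was set beside these values, since AU-rich mRNAs have been described as prevailing in P-bodies. Over 13610 coding genes with a principal transcript, Spearman's rho between GC content and the log2 fold change in the sort was -0.58, and over the 8 subunits it was -0.52 (Pearson's r -0.84). Both are descriptions, since genes of one library share its depth and handling. In the class of 50% to 52% GC, which holds CCT7 and CCT3, the middle 50% of 827 genes ran from -0.66 to 0.21. CCT3 at 0.11 lay inside that range, while CCT7 at -0.74 lay below it. Among genes of 44% to 46% GC the range was -0.32 to 0.68 with a median of 0.17, so CCT5 at 0.74 lay above it and CCT4 at 0.22 near its middle. CCT8, TCP1, CCT2 and CCT6A also lay within the ranges of their classes. CCT7 and CCT3 are thus alike in GC content, over the transcript and at the third codon position, but differ in the sort by more than their standard errors. Transcript length went with the log2 fold change too (rho 0.43 over all genes, 0.69 over the 8), and CCT7 has the shortest transcript of the 8 (1916 bases) and CCT5 the longest (3675 bases). The part of GC content or length in these values was not tested.

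**Figure D3:**
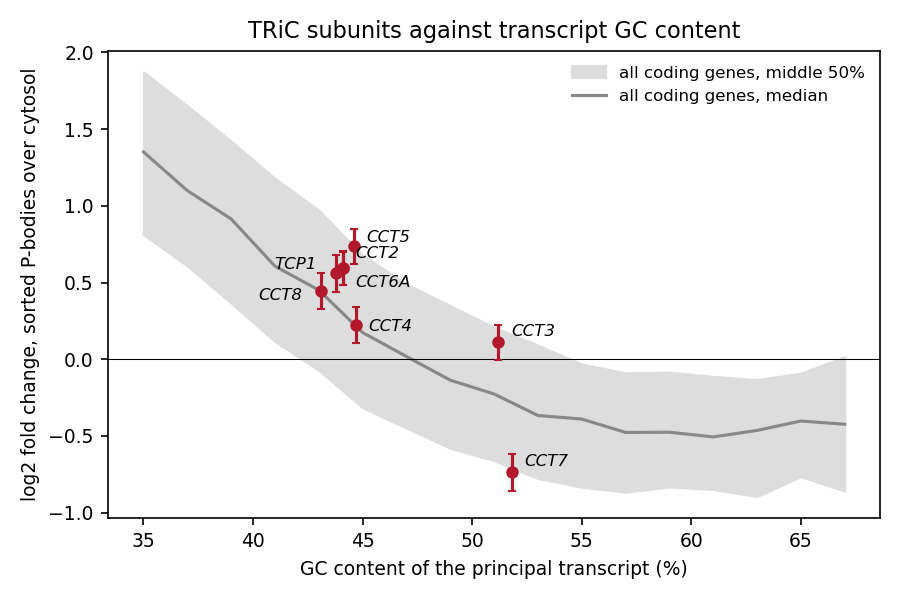
Log2 fold change of sorted P-bodies over cytosol (y axis) against GC content of the principal transcript in percent (x axis): points are the 8 subunits with their standard errors, the line and band the median and middle 50% of all coding genes in classes of 2 percentage points. CCT7 lies below the band at 51.8% GC and CCT3 inside it at 51.2%.

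Editing was measured as the share of a gene's reads with an edited base. By A-to-I editing all 8 subunits had a higher share in sorted P-bodies than in cytosol (8 of 8, adjusted p from 2.4e-10 to 8.8e-07, edgeR on edited and unedited reads). Of the 11303 genes tested, 74.6% passed (73.5% higher and 1.08% lower), so the count lies near what most genes did. The median log2 odds difference of the 8 was 2.13, against 1.46 for all genes. CCT7 was among the 8: its mRNA was lower in the sorted fraction by abundance, and a larger share of the reads found there was edited.

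CCT8 had the highest A-to-I score, 14.7% and 13.7% in sorted P-bodies against 5.02% and 4.34% in cytosol, a log2 odds difference of 1.76 ± 0.12 (SE). CCT2 followed at 10.9% in both sorted libraries, with 3.04% and 2.11% in cytosol (2.22 ± 0.15). CCT7 was at 10.02% and 10.85% in sorted P-bodies, with 3.91% and 3.48% in cytosol (1.60 ± 0.13). For these 3 subunits cytosolic editing was already at or above 2.11%, and CCT8 and CCT7 showed the smallest differences of the 8. TCP1 stood at the other end, at 3.05% and 3.57% in sorted P-bodies and at 0.389% and 0.168% in cytosol, the largest difference of the 8 (3.63 ± 0.24, and 4.32 without cytosol 1). CCT6A was at 4.45% and 5.33% against 0.645% and 0.376% (3.32 ± 0.21), and CCT4 at 7.05% and 7.32% against 0.851% and 0.738% (3.27 ± 0.15). These 3 had low shares in cytosol. In sorted P-bodies CCT4 was near the library medians (percentiles 49.5 and 48.8). TCP1 (19.8 and 22.8) and CCT6A (30.2 and 34.9) were edited less than most genes there. The differences of all 3 lay above those of 95.9% or more of all genes.

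CCT3 was at 6.23% and 6.43% in sorted P-bodies, with 2.07% and 1.79% in cytosol (1.78 ± 0.12). In cytosol 2 TCP1 had the lowest score (0.168%), but by group mean CCT5 was lowest in both fractions. CCT5 was at 1.07% and 1.08% in sorted P-bodies against 0.259% and 0.269% in cytosol (2.03 ± 0.23), from 167 edited of 15487 reads and 35 of 13253. The subunit that rose most by abundance was therefore the least edited of the 8 in the sorted fraction. For every subunit both sorted libraries lay above both cytosol libraries. The share of all genes that did so was not computed, but 73.5% were called higher. The order of the scores was much alike in the fractions (Spearman's rho 0.95 over 8 subunits, which share libraries and bases).

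The whole transcriptome was edited more in the sorted fraction: the median score over genes with at least 50 reads was 7.10% and 7.48% in the sorted libraries and 2.79% and 2.67% in the cytosol libraries. For centring, the median log odds of a library was taken over genes with edited and unedited reads in every library. With each library centred on that median, 14.5% of genes were higher and 14.1% lower, and 5 of the 8 subunits were higher. They were TCP1, CCT6A, CCT4, CCT2 and CCT3, at 2.16, 1.85, 1.80, 0.75 and 0.31 (adjusted p = 2.3e-06, 2.4e-06, 2.5e-08, 0.00048 and 0.037, edgeR). CCT5 at 0.57 (adjusted p = 0.10), CCT8 at 0.29 (adjusted p = 0.055) and CCT7 at 0.12 (adjusted p = 0.43) did not pass. Against the background of its libraries, CCT7 was thus not called higher by A-to-I editing, and it was the one subunit lower by abundance.

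The C-to-U editor split the subunits further. In sorted P-bodies 5 mRNAs carried scores above 1%, while CCT7, CCT5 and CCT3 were at or near 0. Of the 7 subunits tested, 6 were higher in sorted P-bodies, where 68.3% of 10613 genes passed (68.0% higher and 0.292% lower). CCT7, 1 of the 6, had edited reads in the sorted libraries alone. It met the filter on edited libraries only through them and could only be tested as higher. The share of all genes that met the filter in this way was not computed. CCT5 did not pass and CCT3 had too few edited reads to be tested. CCT6A had the highest scores, 3.52% and 3.47% in sorted P-bodies against 0.411% and 0.126% in cytosol, a log2 odds difference of 3.78 ± 0.41 (adjusted p = 9.0e-06, edgeR). TCP1 was at 1.06% and 1.62% in sorted P-bodies, with 0.0779% and 0.0140% in cytosol (4.84 ± 0.57, adjusted p = 1.5e-05, edgeR). For both, the sorted libraries lay clear of the cytosol libraries. The size of the difference depended on the cytosol library: without cytosol 1 it was 4.82 for CCT6A and 6.38 for TCP1, and without cytosol 2 it was 3.12 and 4.06.

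CCT2 was at 2.54% and 2.88% in sorted P-bodies, 260 edited of 9679 reads, and had 1 edited read of 9084 in cytosol. The ratio of the shares was 244 (95% counting interval 43.4 to 9675, adjusted p = 1.9e-06, edgeR). CCT4 was at 2.00% and 2.87%, 288 of 12188 reads, with 1 of 14582 in cytosol (ratio 345, interval 61.4 to 13660, adjusted p = 1.9e-06, edgeR). CCT8 was at 2.89% and 2.36%, 279 of 10470 reads, with 3 of 10799 in cytosol (ratio 95.9, interval 32.5 to 468, adjusted p = 3.0e-06, edgeR). These 3 mRNAs were nearly free of C-to-U marks in cytosol, although all 3 carried A-to-I marks there. Their cytosolic C-to-U reads were all in cytosol 1. Their fitted log2 odds differences of 7.64 (CCT2), 8.14 (CCT4) and 6.48 (CCT8) were 6.73, 7.24 and 5.47 without cytosol 2; without cytosol 1 the cytosolic share was 0. The differences of CCT4 and CCT2 lay above those of 99.4% and 99.1% of genes, a place set by cytosolic counts of 1 read.

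CCT7 had 10 edited of 6286 reads in sorted P-bodies (0.164% and 0.152%) and 0 of 14066 in cytosol. Its pooled share in sorted P-bodies, 0.159%, was 7.46 times the cytosolic limit of 3 reads over the group, 0.0213%. That ratio is no lower bound, since it takes the sorted share as exact. The counting interval of the sorted share ran from 0.0763% to 0.292%. CCT7 was called higher (adjusted p = 0.0023, edgeR), the only direction open to it, since its sorted libraries alone met the filter. The call was lost with limma on log2 scores (0.74 ± 0.23, adjusted p = 0.051). After centring the fitted log2 odds difference was larger, 9.78 ± 4.36 against 6.42 ± 1.45, but did not pass (adjusted p = 0.15); both fitted values are against a group at 0 and are no bound. CCT5 had 6 edited of 15385 reads and 1 of 13233 (ratio 5.16, interval 0.626 to 237, adjusted p = 0.20, edgeR), a difference not detectable at this depth. CCT3 had 0 edited of 17998 reads in sorted P-bodies, which allows a share of up to 0.0167%, and 1 of 22495 in cytosol. The most abundant subunit mRNA was thus listed without C-to-U edits in sorted P-bodies while 6.23% and 6.43% of its reads there carried A-to-I edits. Over the 8 subunits, Spearman's rho between A-to-I and C-to-U scores in sorted P-bodies was 0.38.

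The library medians of the C-to-U score were 2.38% and 2.82% in the sorted libraries and 0.559% and 0.529% in the cytosol libraries. After centring, 8.59% of genes were higher and 6.93% lower, and 5 of 7 subunits were higher: CCT2, CCT4, CCT8, TCP1 (adjusted p = 0.025) and CCT6A (adjusted p = 0.045). CCT2, CCT4, CCT6A and TCP1 were called higher by both editors after centring. Of these, CCT2, CCT6A and TCP1 were also higher by abundance, and CCT4 was not called there. The share of all genes called by both editors, with or without abundance, was not computed. The overlap is therefore a list of members and not a trait of the subunits.

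**Figure D4:**
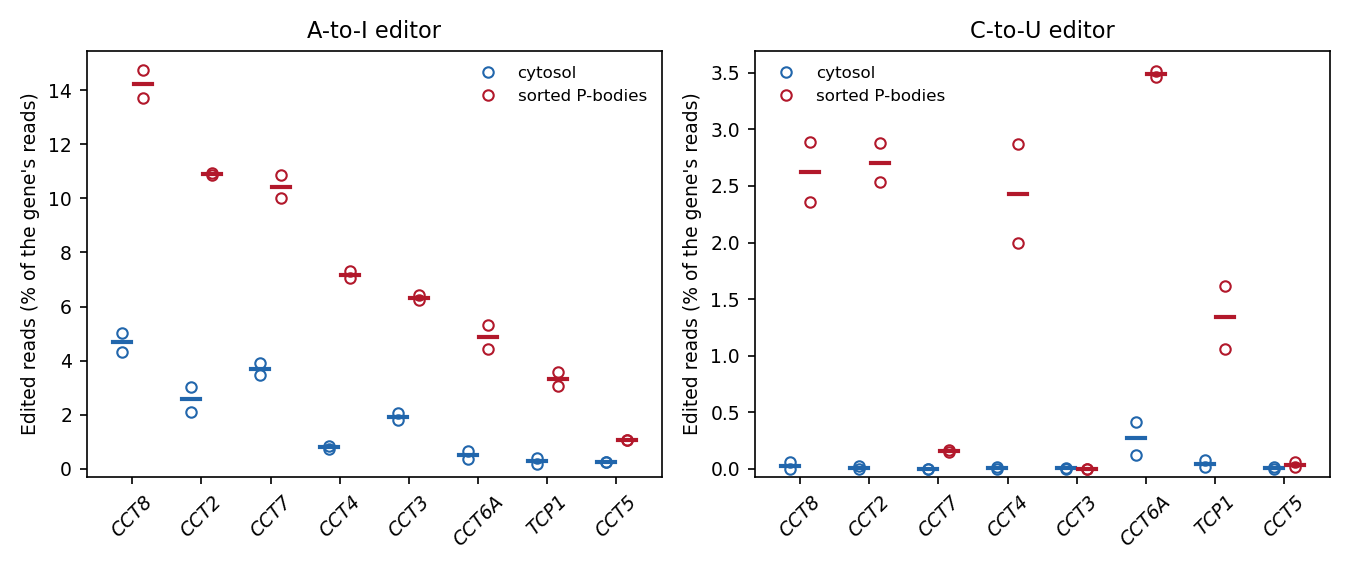
Edited reads as a percentage of each subunit's reads (y axis, linear) for the A-to-I editor (left) and the C-to-U editor (right), in cytosol and sorted P-bodies, each circle a library and each bar a group mean; subunits run in the order of their A-to-I score. All sorted circles lie above the cytosol circles on the left, while on the right CCT7, CCT3 and CCT5 lie at or near 0 in both fractions.

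The knockdown asked what loss of EDC4 does to these marks. EDC4 itself was at 40.3 and 32.7 CPM in siEDC4 and at 110 and 106 CPM in siNC, a log2 fold change of -1.56 ± 0.14 (adjusted p = 2.6e-25, edgeR). No subunit mRNA passed in reads (0 of 8, and 0 of 8 at an unadjusted p under 0.05, by DESeq2 or with 4 libraries in edgeR), where 0.564% of 10642 genes passed (60 genes, and 521 with the batch number as a block). The log2 fold changes ran from -0.10 (CCT8, adjusted p = 0.96) to 0.07 (CCT5, adjusted p = 0.97), with SE of 0.10 to 0.11.

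CCT8 was at 372 and 358 CPM in siEDC4 and at 396 and 388 CPM in siNC. CCT5 was at 417 and 464 CPM in siEDC4 and at 424 and 413 CPM in siNC. CCT7, set apart in the sort, was at 601 and 679 CPM in siEDC4 and at 673 and 647 CPM in siNC. Both siEDC4 libraries lay below both siNC libraries for CCT8, and also for TCP1 (508 and 504 against 539 and 526 CPM) and CCT2 (355 and 360.4 against 362 and 380.4 CPM). The share of all genes whose libraries part in this way was not computed, so no result is read from it. The groups overlapped for CCT5 and CCT7. For CCT3, CCT4, CCT6A and CCT7, siEDC4 1 lay below both siNC libraries, and siEDC4 2 above both. Without siEDC4 2, with siNC as 2 samples, CCT3, CCT4, CCT6A and CCT7 passed as lower (-0.16, -0.14, -0.10 and -0.13), and without siEDC4 1 CCT5 passed as higher (0.15) and CCT8 as lower (-0.13), with adjusted p from 6.5e-06 to 0.037 (edgeR). In those fits the spread comes from the siNC pair, which differed by about sampling noise.

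**Figure D5:**
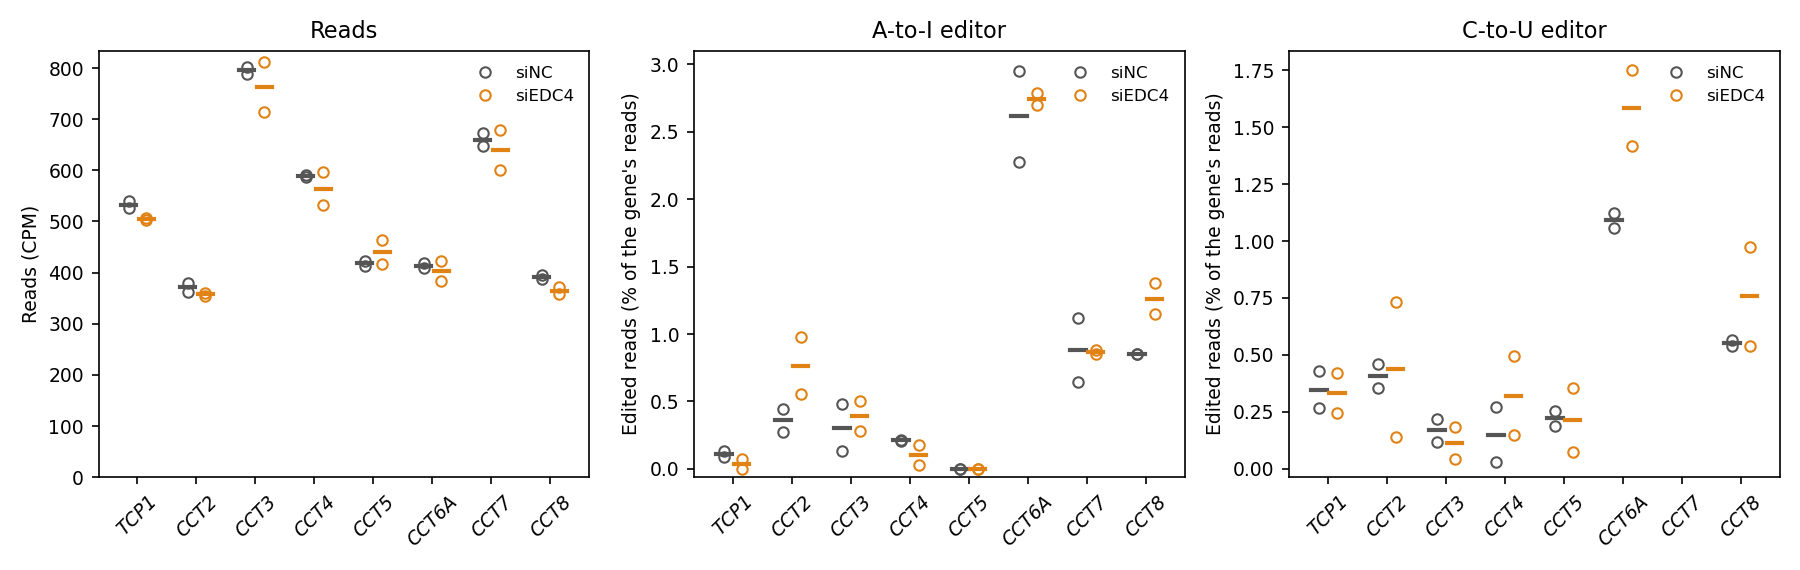
Reads in CPM (left), A-to-I score (middle) and C-to-U score (right) of each subunit, with scores as a percentage of its reads, in the siNC and siEDC4 libraries (circles) with a bar at the group mean; CCT7 has no C-to-U value. CCT6A has the highest score with both editors, and CCT5 is at 0 with the A-to-I editor.

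No difference in the subunits' editing after the knockdown passed (0 of 7 tested in each table; 0 of 9157 genes by A-to-I and 0 of 9646 by C-to-U, a percentage of 0 in both, edgeR, with 491 and 377 at an unadjusted p under 0.05). With the batch number as a block 26 and 4 genes passed, none of them a subunit. CCT6A was the most edited subunit by both editors. By A-to-I it stood at percentiles 80.6 to 89.2 of the genes with at least 50 reads in each library. The other 7 subunits stood at percentiles 7.5 (CCT5 and TCP1) to 53.0 (CCT7) by A-to-I. In these percentiles, genes tied at a score are split evenly between below and above. At 7.5 both subunits had 0 edited reads, in siEDC4 1, so no gene lay below them. The A-to-I score of CCT6A was 2.695% and 2.785% in siEDC4 and 2.28% and 2.95% in siNC (0.08 ± 0.29, adjusted p = 0.98), and its C-to-U score 1.42% and 1.75% against 1.06% and 1.12% (0.54 ± 0.40, adjusted p = 1). In the sorted fraction CCT6A had been the most edited by C-to-U but only the sixth by A-to-I. CCT8 had A-to-I scores of 1.15% and 1.38% in siEDC4 and of 0.851% and 0.854% in siNC (0.57 ± 0.37, adjusted p = 0.85). CCT7 was at 0.848% and 0.880% against 1.12% and 0.646% (-0.06 ± 0.33, adjusted p = 1).

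CCT2 had A-to-I scores of 0.556% and 0.974% in siEDC4 and of 0.443% and 0.275% in siNC, so its siEDC4 libraries were both higher, but the difference of 1.07 ± 0.52 did not pass (adjusted p = 0.84). CCT3 lay between 0.133% and 0.506%, CCT4 between 0.0309% and 0.217% and TCP1 between 0 and 0.132% over the 4 libraries. CCT5 had 0 edited of 5177 reads in siEDC4 and 0 of 5011 in siNC, which allows shares of up to 0.0580% and 0.0599%. By C-to-U, the 6 subunits listed beside CCT6A lay between 0.0297% (CCT4) and 0.973% (CCT8) in every library. CCT7 is not listed in that table. CCT3 was at 0.120% and 0.221% by C-to-U in siNC, although it was at 0 in sorted P-bodies; the tables were made separately, so this difference has no test. These scores rest on 1 to 71 edited reads per library where any were seen, and no difference of a subunit passed. The counting interval for the ratio of siEDC4 to siNC shares lay above 1 for CCT2 by A-to-I (ratio 2.11, interval 1.12 to 4.11). It did so too for CCT6A by C-to-U (ratio 1.45, interval 1.01 to 2.10). Every other such interval computed for a subunit included 1. These intervals leave out the spread between libraries, so no difference is read from them.

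TRiC works with a set of partners, and their mRNAs did not follow one direction in the sort. Of all genes tested there, 28.8% were higher and 29.0% lower. Of 6 prefoldin subunits, which hand unfolded actin and tubulin to TRiC, PFDN4 was higher (0.35) and PFDN6, PFDN1 and PFDN2 lower (-1.59, -0.94 and -0.63). Of 7 co-factors measured, the phosducin-like proteins PDCL and PDCL3 and the related TXNDC9 were higher (1.28, 0.48 and 0.36). BAG3, an HSP70 co-chaperone, HSF1, the heat shock transcription factor, and PDCD5 were lower (-0.93, -0.88 and -0.82). PDCL rose most of the co-factors, at 131 and 140.4 CPM in sorted P-bodies against 54.2 and 57.3 CPM in cytosol. Among chaperonin-like genes, BBS12 and BBS10, which help to assemble the ciliary BBSome, were higher (1.62 and 0.67; 2 of 4). HSPE1, the lid of the mitochondrial chaperonin, was lower (-0.58; 1 of 2).

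Of 23 client proteins, TUBB6 and CCNE1 were higher (0.57 and 0.47) and 8 were lower, led by MLST8, ACTB and GNB1 (-1.01, -0.99 and -0.82). Actin and tubulin genes have near-identical copies, so their values are uncertain. Beside 28.8% higher and 29.0% lower of all genes, 8 of the 42 partner and client genes tested were higher and 15 lower. Their median was -0.08. By editing, 31 of 38 were higher in sorted P-bodies by A-to-I and 25 of 33 by C-to-U, and 0 were lower, beside the 73.5% and 68.0% of all genes given above. Some of the genes called higher had edited reads in the sorted libraries alone, so they could not have been called lower. These were PFDN2 and PFDN6 by both editors, and HSPD1, HSPE1, HSF1, ACTG1, GNB1 and TUBA1C by C-to-U. No result is read from these counts. After the knockdown, TUBA1A, an alpha-tubulin, was the one partner or client gene of 39 that passed in reads, beside 0.564% of all genes. It was at 234 and 215 CPM in siEDC4 and at 146 CPM in both siNC libraries (0.62 ± 0.12, adjusted p = 7.0e-05, edgeR). By editing 0 of 33 and 0 of 37 passed after the knockdown, with 2 and 4 at an unadjusted p under 0.05.

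Among 4618 genes tested in all 6 comparisons with a mean of at least 50 CPM in the sort, likeness to the subunits was measured as the Euclidean distance to their median log2 values. The nearest was HNRNPR, an RNA-binding protein (distance 0.65), followed by UAP1, an enzyme of sugar nucleotide synthesis (0.75), COPS3, a COP9 signalosome subunit (0.83), RRM1, the large ribonucleotide reductase subunit (0.87), and KIF2C, a mitotic kinesin (0.88). Of the subunits that could be placed, CCT8 was nearest to the median (0.73, rank 2). CCT2 was at rank 73, CCT4 at 510, TCP1 at 701 and CCT6A at 868, so the subunits were spread widely among other genes by this measure. Of the 6 values behind the distance, C-to-U editing in the sort had the widest range among the subunits (2.07 to 8.14). Its median, 6.42, was the value of CCT7, fitted against 0 edited reads in cytosol. The values of CCT2, CCT4 and CCT8 rest on 1 to 3 such reads. The list of nearest genes therefore depends on poorly fixed values.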

How the data were processed

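The 8 subunits and all lists were chosen with earlier results of these data known. The authors deposited whole-number read counts per gene for the sort and, per editor and contrast, edited reads, reads and an editing score per gene. The authors' deposited reads and edited reads per gene were entered as estimated counts because 3 broken lines per editing table, which were left out, hold values that are not whole; how reads were assigned is not stated in the labels. The deposited score is a fraction that equals edited reads over reads to within 5.0e-08, given here as a percentage. Per the submitters' processing notes, reads were handled with featureCounts 2.0.1, STAR 2.7.9a, cutadapt 1.18 and FastQC 0.11.9 on hg38. The sources used here do not give the annotation, strand setting, treatment of reads with several matches or site calling, so a score of 0 is a listed 0 that a site filter can produce.

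The quasi-likelihood test of edgeR 4.0.16 (in R 4.3.3) was run on counts with TMM factors and the filterByExpr filter. For editing it was run on each library's edited and unedited reads, with a term for the library and a term for the edited share in the group, over genes edited in at least 2 libraries. P-values were adjusted by Benjamini-Hochberg over all genes of a table, with a threshold of 0.05. Scripts were tested on simulated data. Only CCT3 in the sort's C-to-U table and CCT5 in the knockdown's A-to-I table were listed but untestable. The siNC libraries were summed because their reads agreed to about sampling noise (p = 0.0624 and 0.0467 in the 2 tables), although their edited reads did not (chi-square per degree of freedom 1.30 and 1.31). The knockdown fits therefore have 1 residual degree of freedom among libraries. The labels give each group batch 1 and batch 2, which pairs the samples by number; same-numbered deviations correlated at 0.094 over 13727 genes in the sort and at -0.030 over 10362 in the knockdown. Named beside the members were EDC4, relatives and overlapping genes, up to 3 called list genes each way per comparison, and the 5 nearest genes. Transcript features and coding sequence came from GENCODE v29 (hg38), by gene identifier. Counting intervals (exact, 95%) and the limit of 3 reads for a count of 0 cover counting error alone; without molecular identifiers, reads are not independent molecules. Alternatives were DESeq2 1.42.0, limma 3.58.1 on log2 scores, other scaling, filters and centring, the batch block and leaving out each library; abundance from the A-to-I table's reads and lengths of principal transcripts were added after the data were seen.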

Additional observations from a re-analysis of the deposited data

How the results depend on the processing

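In the sort, scaling by library size alone moved the median of all genes from -0.03 to -0.23 and the split of calls from 5401 higher and 5440 lower to 4257 and 6911; CCT3 then turned to -0.089. Leaving out 1 library gave 8077 to 12715 genes and 2 to 8 subunits called (2 without cytosol 1). The batch block changed no subunit call in the sort. Centring left 3230 genes called by A-to-I (1635 higher, 1595 lower; 5 subunits) and 1648 by C-to-U (912 and 736), and turned CCT5 by C-to-U to -0.15, uncalled. Without 1 library, 5 to 6 subunits were called by C-to-U; without either sorted library CCT7 had edited reads in too few libraries to be tested.

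In the knockdown, the genes called in reads went from 60 to 154 with 4 libraries, 521 with the batch as replicate block (303 higher, 218 lower) and 32 to 2127 without 1 library (1606 without siEDC4 1, 2127 without siEDC4 2), and the subunits to 0 to 4 (2 without siEDC4 1, 4 without siEDC4 2). In editing the replicate block called 26 genes (A-to-I) and 4 (C-to-U), and no subunit. No subunit was called in reads with the block. The sign of an uncalled value turned in 5 of 79 values for reads, 6 of 63 for A-to-I and 11 of 63 for C-to-U. In reads without siEDC4 1, CCT3 was 0.027, CCT4 0.019, CCT6A 0.030 and CCT7 0.040; without siEDC4 2, CCT5 was -0.005. By A-to-I, CCT3 was -0.16 without siEDC4 1 and -0.30 without siNC 2, CCT6A -0.23 centred and -0.11 without siNC 1, and CCT7 0.001 with limma and 0.42 without siNC 1. By C-to-U, without siEDC4 2, TCP1 was 0.29, CCT2 -1.51, CCT3 0.13 and CCT5 0.69; without siNC 2, TCP1 was 0.32 and CCT5 0.16; without siEDC4 1, CCT4 was -0.069 and CCT8 -0.034; CCT2 was -0.02 with limma, -0.13 centred and -0.11 without siNC 1. The cause was not tested.

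Of the alternatives' values, 61 of 72 for abundance in the sort, 61 of 64 for A-to-I and 51 of 54 for C-to-U kept their direction and side of the threshold, as did 68 of 79, 57 of 63 and 52 of 63 in the knockdown's reads, A-to-I and C-to-U. Few edited reads limit the knockdown scores.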

Other observations

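Of the relatives tested (CCT4P2, CCT6P1, CCT6P3, CCT6B and CCT8P1), only CCT4P2 was called higher in sorted P-bodies, beside 28.8% of all genes. CCT4P2, a pseudogene of CCT4 on the X chromosome, had 37 and 61 counts in sorted P-bodies, with 2 and 3 in cytosol. The log2 difference was 4.50 ± 0.55 (adjusted p = 9.2e-05, edgeR), while CCT4 itself was not called. CCT6P1, the relative with the most counts, had 186 and 222 counts in sorted P-bodies, with 249 and 256 in cytosol (-0.03 ± 0.16, adjusted p = 0.88, edgeR). CCT6B was at 0.49 ± 0.28, CCT6P3 at -0.15 ± 0.17 and CCT8P1 at 0.60 ± 0.47 (adjusted p = 0.16, 0.47 and 0.30, edgeR). Reads that match a subunit and its relative cannot be assigned with certainty.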
